A study of Mus musculus with 4 samples.

Results

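Ciliated cells were a small population of the cells recovered from the mouse main olfactory epithelium. They were chosen by a rule on measured counts: a passing barcode (a cell barcode with at least 500 detected genes and at most 10% of its unique molecular identifiers, UMIs, in mitochondrial genes) was taken when the UMIs of Dynlrb2, Sntn and Tmem212 summed to at least 6, with at least 2 of the 3 genes detected, Omp at most 15 and Cyp2g1 at most 30 UMIs. The rule found 201 cells among 39715 passing barcodes, of 41911 deposited. The libraries came from wild-type C57BL/6J mice aged 3 months, 2 female and 2 male libraries with no treatment. The epithelium was dissected from the bone, dissociated with papain and strained, and single-cell libraries reading the 5′ end of transcripts were made. The labels name the tissue alone and no cell type, and they do not say how many animals went into a library. The title of the series concerns neurexins and the targeting of olfactory axons, and the labels state no question about ciliated cells.

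Multiciliated cells carry many motile cilia that beat together and move mucus over airway surfaces. Each motile cilium is built on an axoneme of doublet microtubules around a central pair. Rows of outer and inner dynein arms drive the sliding of the doublets, and radial spokes and the central apparatus shape the beat. Olfactory sensory neurons also carry cilia on their dendritic knobs, which hold the odorant receptors and the transduction machinery. Supporting (sustentacular) cells bear microvilli and express enzymes of xenobiotic metabolism.

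Female 1 gave 71 ciliated cells of 10220 passing barcodes, a share of 0.695% with an exact (Clopper-Pearson) 95% interval of 0.543% to 0.875%. Female 2 gave 49 of 9763 (0.502%, 0.372% to 0.663%). Male 1 gave 28 of 9663 (0.290%, 0.193% to 0.419%), and male 2 gave 53 of 10069 (0.526%, 0.395% to 0.688%). Male 1 was lowest and female 1 highest, and the other two libraries lay between them. These intervals cover counting error and not the dissection. Total depth of the libraries was 100725429 to 111577458 UMIs. The ciliated cells held a median of 12438, 12985, 12152.5 and 10791 UMIs in female 1, female 2, male 1 and male 2, against 8625.5 to 9492 in the other passing barcodes. Their range was wide, from 656 to 63299 UMIs. Between 136 and 172 barcodes were shared by any pair of libraries, and none was a ciliated cell in both libraries of a pair.

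Levels are given as CPM, the number of UMIs of a gene in the summed cells of a group per 1000000 UMIs of that sum in 1 library. Dynlrb2, a light chain of dynein motors, stood at 1490, 1990, 2180 and 2310 CPM in the ciliated cells of female 1, female 2, male 1 and male 2. Tmem212, a membrane protein, stood at 1610, 1560, 1780 and 2000 CPM in the same order. Sntn, which encodes the cilium tip protein sentan, stood at 570, 536, 734 and 657 CPM. These 3 genes chose the cells, so their levels are a description. All 3 were detected in 187 of the 201 cells (93.0%), and the summed rule count per cell had a median of 52 and a range of 6 to 294.

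Foxj1, the forkhead factor that drives motile ciliogenesis, was not part of the rule. It stood at 1360, 1620, 1790 and 1690 CPM (mean 1620 ± 186, SD, n = 4 libraries), and the 4 libraries lay close together. The other passing barcodes averaged 136 CPM, passing barcodes with more than 15 Omp UMIs (20083, rich in sensory neuron transcripts) 214 CPM, and those with more than 30 Cyp2g1 UMIs (8427, rich in sustentacular transcripts) 48.2 CPM. At least 1 Foxj1 UMI was seen in 198 ciliated cells (98.5%). After each cell was thinned to 2000 UMIs, which left out 10 ciliated cells, 46 of the Omp-rich and 47 of the Cyp2g1-rich barcodes, the shares were 86.4%, 37.0% and 6.72%. Of the markers named for these cells, Foxj1 is the one that the rule did not use, and on its level the label of ciliated cells was kept. The word respiratory is a working name: no label and no value used here places the cells within the nose.

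**Figure D1:**
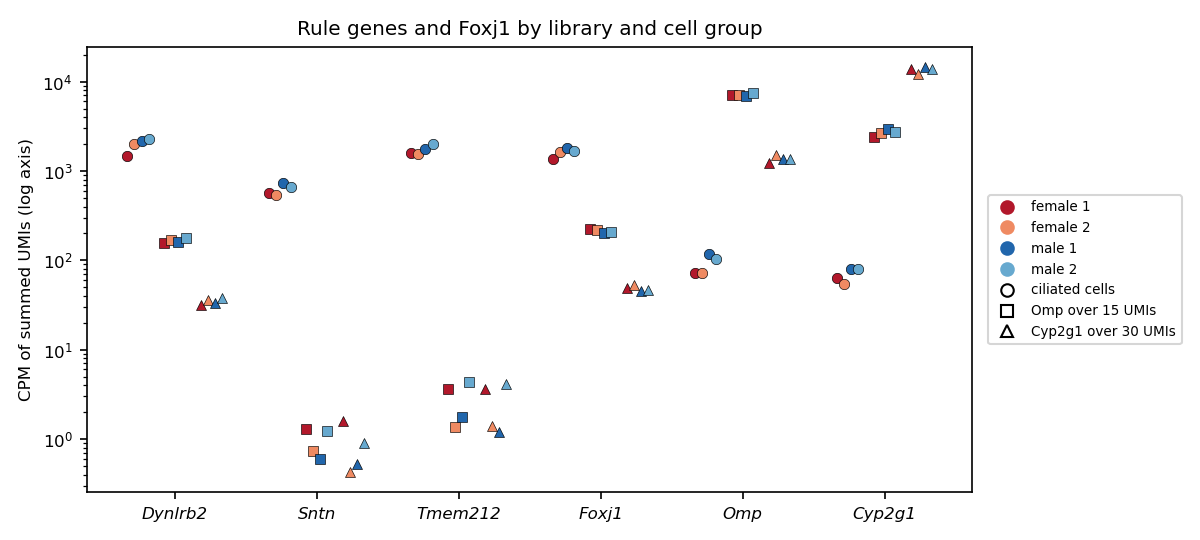
CPM (log axis) of the 3 rule genes, Foxj1, Omp and Cyp2g1 in each library (colour) and cell group (shape). Circles, ciliated cells, lie near 1620 CPM for Foxj1, and squares and triangles, the Omp-rich and Cyp2g1-rich barcodes, lie near 214 and 48.2 CPM. The 2 genes with upper limits in the rule, Omp and Cyp2g1, are lowest in the circles.

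Low counts of the limiting genes remained in the ciliated cells. Omp, the olfactory marker protein, had a median of 1 UMI and a maximum of 7 per cell, and 135 cells held at least 1. In thinned cells 23.0% of ciliated cells had an Omp UMI, against 45.1% of Cyp2g1-rich barcodes. That group had no limit on Omp, whereas the rule limits Omp in the ciliated cells. Cyp2g1, a cytochrome P450 of sustentacular cells, had a median of 1 and a maximum of 16 UMIs. At the lower edge of the rule, the 7, 2, 7 and 7 cells per library with a rule count of 6 to 8 carried 9000, 25600, 19700 and 20300 CPM summed over the axoneme genes of the lists below. Just outside, the 6, 5, 5 and 5 barcodes with a rule count of 4 or 5 and at least 2 of the 3 genes carried 5920, 7620, 11600 and 6740 CPM. All ciliated cells together carried 11700, 12500, 13800 and 14700 CPM, and all other passing barcodes 2180 to 2240 CPM. A further 23, 11, 9 and 16 barcodes met the rule count but not the limits on Omp and Cyp2g1.

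Markers of other cell types were summed per library. Of the 8 mature sensory neuron markers none was at 0, and their sum was 374 to 718 CPM against 13700 to 14800 CPM in the other passing barcodes. The 5 sustentacular markers gave 3680 to 6560 CPM against 10100 to 11500 CPM. They include Cyp2g1, which the rule limits, at 54.0 to 80.7 CPM against 4600 to 5660 CPM. Omp, also limited by the rule, is among the 8 neuron markers, so both gaps are partly set by the rule. The 3 lymphocyte markers (Cd3e, Cd79a, Nkg7) were all at 0. Neutrophil markers (3 genes, 1.83 to 5.34 CPM), ensheathing glia markers (4 genes, 2.67 to 6.41 CPM, Frzb at 0) and endothelial markers (2 genes, 0 to 2.75 CPM, Cdh5 at 0) were near the level of 3 counts, which is 2.75 to 8.01 CPM in a library's ciliated cells. The 8 secretory markers (Scgb1a1 at 0) gave 58500 to 111000 CPM against 8180 to 10600 CPM. Their part in the results below was not tested, and their levels are given beside the genes they touch.

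A gene was counted as higher (or lower) when its CPM with 1 CPM added was at least 4-fold above (or below) that of the other passing barcodes in each of the 4 libraries. No test was made, because the same counts chose the cells. Over 19760 genes detected in passing barcodes, 584 were higher (2.96%) and 939 were lower (4.75%), and the median log2 ratio over all genes was -0.24. The count of lower genes moved with the amount added, from 2036 at 0.1 CPM to 330 at 10 CPM, and it was 223 without the limits on Omp and Cyp2g1.

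The next genes were among those with the largest ratios and at least 100 CPM in every library. Tctex1d4, a Tctex-type dynein light chain relative, stood at 461, 424, 534 and 494 CPM in ciliated cells and 0.631 CPM in the others, a log2 ratio of 8.15. Fam183b stood at 824, 906, 1330 and 1170 CPM against 3.08 CPM. Ccdc153 stood at 1190, 1280, 1470 and 1520 CPM against 6.32 CPM (log2 7.62). Both encode proteins associated with motile cilia. Cdhr3, an apical cadherin of ciliated airway cells and the receptor of rhinovirus C, stood at 501, 429, 513 and 562 CPM against 1.29 CPM (log2 7.65). These 4 genes were named for their large ratios, so the distance between the groups is a description. Of the 18 other ciliated cell markers listed, 15 were higher. Tppp3, a tubulin polymerization protein, averaged 1010 ± 55.8 CPM against 32.4 CPM, whereas Sec14l3 averaged 2340 ± 191 CPM against 3980 CPM in the others and 9880 CPM in the Cyp2g1-rich barcodes.

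Regulators of the multiciliated programme were read next. Of 12 listed, 3 were higher (Foxj1, Trp73 and Myb), with a list median of log2 1.09. Trp73, a p53 family factor needed for multiciliated differentiation, stood at 72.3, 82.8, 104 and 98 CPM against 2.16 CPM (log2 4.82). Myb, which acts early in the programme, stood at 57.7, 143, 58.8 and 92.3 CPM against 5.70 CPM (log2 3.61). Female 2 held the highest Myb level, and every library stood above the others' mean. The RFX factors, which bind the X-box of cilium gene promoters, were less separate. Rfx2 averaged 96.1 ± 13.2 CPM against 29.4 CPM (log2 1.71). Rfx3 averaged 152 ± 8.13 CPM against 121 CPM in all others and 164 CPM in the Omp-rich barcodes, so that its level in ciliated cells and in neuron-rich barcodes was similar.

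Of 14 listed genes of centriole amplification 2 were higher, Deup1 and Cetn4, with a list median of log2 0.51. Deup1, which builds the deuterosome on which new centrioles form, stood at 31.1, 110, 48.1 and 96.6 CPM against 0.205 CPM (log2 5.84). Cetn4, a centrin, stood at 176, 246, 358 and 247 CPM against 10.0 CPM, with UMIs in 146 of the ciliated cells. Mcidas, an inducer of the multiciliated fate, had 42 UMIs in 3 cells. Over the 5 deuterosomal markers (Deup1, Ccno, Cdc20b, Mcidas, Foxn4), 14 ciliated cells held at least 3 UMIs from at least 2 of them. They were 4 of 71, 6 of 49, 1 of 28 and 3 of 53 in female 1, female 2, male 1 and male 2. Outside the ciliated cells 9 of 10149, 8 of 9714, 17 of 9635 and 6 of 10016 passing barcodes did so too. The share was larger in the ciliated cells of each library, with no adjustment for their greater depth. Of the 14 ciliated cells, 3 stood apart with 126, 77 and 65 such UMIs, and the next held 20. The first was in female 2, with 39 Deup1, 57 Ccno and 21 Mcidas UMIs, 140 Foxj1 UMIs and a rule count of 201 in 44071 UMIs. The second was also in female 2, with 22 Deup1, 31 Ccno and 16 Mcidas UMIs in 40314. The third was in male 2, with 37 Deup1, 16 Ccno and 5 Mcidas UMIs in 35601. All 3 cells were deep, had 48 to 50 axoneme genes detected and held 5536, 8621 and 1842 UMIs of Bpifa1, a secretory gene. They are thus among the 31 Bpifa1-rich barcodes described below, for which it was not tested whether a barcode held 1 cell or more. Female 1 and male 1 had no such cell.

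Promoters show which of these genes carry the sequence bound by RFX factors. The windows run from 250 bases before to 50 after the start of a gene, from RefSeq on GRCm38.p6. The X-box motif was searched by its name's consensus on both strands, and the forkhead core TGTTTAC on both strands, with overlaps between the motifs allowed. Capitals mark the matches. The first 3 lines are the rule genes, and the other 4 are higher genes whose X-box lies within the last 50 bases before the start.
Dynlrb2: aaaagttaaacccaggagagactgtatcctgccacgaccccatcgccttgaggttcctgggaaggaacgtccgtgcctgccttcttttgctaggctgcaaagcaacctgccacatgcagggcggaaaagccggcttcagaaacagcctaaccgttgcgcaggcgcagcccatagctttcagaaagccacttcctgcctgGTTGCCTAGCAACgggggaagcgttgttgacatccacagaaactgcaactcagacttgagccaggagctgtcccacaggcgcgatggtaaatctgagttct
Sntn: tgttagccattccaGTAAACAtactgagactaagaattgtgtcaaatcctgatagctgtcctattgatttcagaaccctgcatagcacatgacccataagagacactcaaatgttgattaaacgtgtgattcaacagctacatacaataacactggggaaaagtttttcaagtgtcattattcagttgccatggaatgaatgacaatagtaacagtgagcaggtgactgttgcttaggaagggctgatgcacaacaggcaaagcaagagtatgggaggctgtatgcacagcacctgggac
Tmem212: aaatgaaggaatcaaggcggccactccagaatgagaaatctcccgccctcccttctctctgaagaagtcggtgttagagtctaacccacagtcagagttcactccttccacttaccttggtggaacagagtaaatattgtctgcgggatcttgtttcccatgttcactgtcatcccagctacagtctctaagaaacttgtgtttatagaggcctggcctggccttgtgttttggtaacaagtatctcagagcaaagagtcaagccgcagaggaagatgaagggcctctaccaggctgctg
Fam166c: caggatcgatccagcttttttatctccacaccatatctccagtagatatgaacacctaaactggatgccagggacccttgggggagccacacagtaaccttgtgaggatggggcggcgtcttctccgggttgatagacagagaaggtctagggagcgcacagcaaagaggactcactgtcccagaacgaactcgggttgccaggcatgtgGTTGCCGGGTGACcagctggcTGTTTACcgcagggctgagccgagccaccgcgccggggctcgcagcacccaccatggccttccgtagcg
Dnaic1: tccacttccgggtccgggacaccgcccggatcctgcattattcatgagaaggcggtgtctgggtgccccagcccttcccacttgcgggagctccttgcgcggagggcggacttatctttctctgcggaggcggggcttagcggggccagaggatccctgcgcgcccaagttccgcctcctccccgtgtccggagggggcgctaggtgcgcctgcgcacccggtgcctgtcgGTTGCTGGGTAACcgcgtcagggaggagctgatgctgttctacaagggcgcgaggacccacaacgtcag
Hydin: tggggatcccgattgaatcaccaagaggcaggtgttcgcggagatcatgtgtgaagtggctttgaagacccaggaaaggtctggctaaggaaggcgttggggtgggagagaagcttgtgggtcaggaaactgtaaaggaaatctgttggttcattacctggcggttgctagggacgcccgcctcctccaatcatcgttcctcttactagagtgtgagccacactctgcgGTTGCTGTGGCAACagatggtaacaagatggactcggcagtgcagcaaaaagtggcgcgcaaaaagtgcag
Cfap45: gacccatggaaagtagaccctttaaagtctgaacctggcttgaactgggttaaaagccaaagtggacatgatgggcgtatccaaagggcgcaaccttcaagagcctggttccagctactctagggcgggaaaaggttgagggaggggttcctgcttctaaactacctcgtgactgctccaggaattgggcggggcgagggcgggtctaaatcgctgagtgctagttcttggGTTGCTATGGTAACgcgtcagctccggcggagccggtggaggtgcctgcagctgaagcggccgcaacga

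These windows are chr8:116504765-116505064 (plus strand) for Dynlrb2, chr14:13670626-13670925 (plus) for Sntn, chr3:27896319-27896618 (minus) for Tmem212 and chr5:30465827-30466126 (plus) for Fam166c. Those of Dnaic1, Hydin and Cfap45 are chr4:41569544-41569843, chr8:110266727-110267026 and chr1:172520880-172521179, all on the plus strand. Counted from the start, the X-box of Dynlrb2 begins at position -51, that of Fam166c at -40, that of Dnaic1 at -19, that of Hydin at -21 and that of Cfap45 at -19. Fam166c also holds a forkhead core, Sntn holds a forkhead core and no X-box match, and neither motif matched in the Tmem212 window. An X-box was in 28 of 448 higher genes with a window (6.25%), in 279 of 15309 genes of all those tested (1.82%) and in 474 of all 27025 genes with a window (1.75%). By list it was in 3 of 10 outer dynein arm genes, 3 of 10 assembly factors, 3 of 12 central pair genes, 5 of 26 doublet genes and 2 of 21 transport genes. It matched in none of 10 inner dynein arm genes and in none of 14 secretory genes with a window. The forkhead core was in 24 of the 448 higher genes (5.36%) and in 3.39% of all tested genes. A match is a run of letters and no evidence of binding.

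The inner dynein arms gave the most uniform result of the axoneme. Of 12 listed genes, 11 were higher, with a list median of log2 5.48 against all others and 5.47 against the Omp-rich barcodes, where the median of all genes was -0.09. Dnah6, an inner arm heavy chain, stood at 377, 356, 465 and 389 CPM in ciliated cells and 0.739 CPM in Omp-rich barcodes (log2 7.69). Dnah10 stood at 393, 346, 355 and 473 CPM against 1.59 CPM. Dnah3 stood at 275, 185, 232 and 317 CPM against 0.564 CPM. Dnah3 was lowest in female 2 and highest in male 2, and each of these 3 heavy chains was near 0 in the Omp-rich barcodes. Dnah12 (220 ± 45.7 CPM) and Dnah1 (149 ± 23.8 CPM) were at 0.913 and 0.409 CPM in the Omp-rich barcodes. Dnali1, an inner arm light intermediate chain, averaged 500 ± 71.4 CPM against 34.1 CPM. Wdr63 was the list member that missed the 4-fold call, at 151 ± 22.1 CPM against 30.9 CPM in all others. Dnah7a and Dnah7b are near-identical copies, so their split levels (95.5 and 91.5 CPM) are uncertain.

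Outer dynein arm genes were mixed. Of 13 listed, 7 were higher, and the list median was log2 2.33 against all others and 1.68 against the Omp-rich barcodes. Dnah5, the outer arm heavy chain most often mutated in primary ciliary dyskinesia, stood at 947, 737, 1030 and 1110 CPM against 6.4 CPM in the others (log2 6.95). Dnah9, its partner in the distal cilium, stood at 635, 497, 689 and 797 CPM against 17.5 CPM (log2 5.17). Dnah11, the partner near the base, stood at 170, 149, 144 and 223 CPM against 60.2 CPM in the others and 85.8 CPM in the Omp-rich barcodes (log2 0.88). The intermediate chain Dnaic2 averaged 246 ± 24.4 CPM against 21.9 CPM, and the docking protein Ccdc114 198 ± 36.3 CPM against 37.5 CPM. Nme8 had 0 UMIs in the 3030287 UMIs of the ciliated cells, which allows up to 0.990 CPM. Of 13 tested factors that assemble dynein arms in the cytoplasm, 8 were higher. Dnaaf3 stood at 165, 195, 246 and 226 CPM against 2.27 CPM (log2 5.99), and Zmynd10 averaged 194 ± 33.8 CPM against 34.8 CPM. Pih1d3 was at 0 in every passing barcode and entered no count.

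Radial spoke genes were higher in 6 of 14 cases, with a list median of log2 2.15. Rsph1, a spoke head protein, stood at 812, 1070, 1070 and 1080 CPM against 94.1 CPM in the others (log2 3.46). Lrrc23, a spoke protein, stood at 312, 522, 425 and 523 CPM against 14.1 CPM (log2 4.92). Both were above the Omp-rich barcodes, at 152 and 23.1 CPM, in every library. Rsph9, also of the spoke head, averaged 435 ± 117 CPM against 315 CPM in the Omp-rich barcodes (log2 0.45). Dnajb13, a chaperone-like spoke protein, averaged 133 ± 22.8 CPM against 148 CPM there (log2 -0.16).

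Central apparatus genes were higher in 9 of 13 cases, with a list median of log2 3.46. Hydin, a protein of a central pair projection, stood at 488, 457, 588 and 554 CPM against 9.14 CPM (log2 5.62). Spag17, also of a projection, stood at 205, 244, 240 and 298 CPM against 0.738 CPM (log2 7.25). Cfap54 averaged 386 ± 48.8 CPM against 25.2 CPM. The 3 genes were far above every comparison group in each library. A pair of genes of the list went the other way against the neuron-rich barcodes. Spef2 stood at 316, 277, 320 and 381 CPM, against 498 CPM in the Omp-rich barcodes (log2 -0.67, range -0.84 to -0.35). Cfap69, which is also known from the cilia of olfactory neurons, stood at 302, 302, 296 and 311 CPM against 480 CPM (log2 -0.65). Spef1 (263 ± 49.8 CPM) was near the 237 CPM of the Omp-rich barcodes.

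Genes of the links and inner proteins of the doublets were higher in 20 of 32 cases, with a list median of log2 2.69. Iqca, a subunit of the nexin-dynein regulatory complex, stood at 246, 307, 342 and 330 CPM against 1.5 CPM (log2 7.02). Cfap161, a microtubule inner protein, stood at 163, 234, 240 and 247 CPM against 0.419 CPM (log2 7.43). Cfap126 (Flattop) averaged 825 ± 90.6 CPM against 89.9 CPM.

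**Figure D2:**
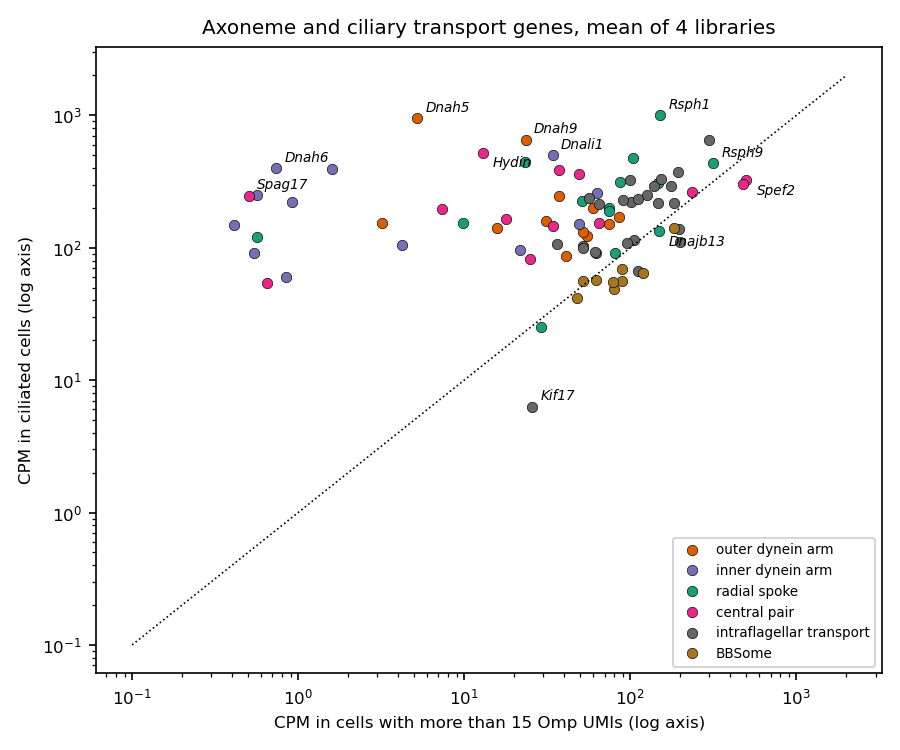
Mean CPM over 4 libraries in ciliated cells (vertical, log axis) against barcodes with more than 15 Omp UMIs (horizontal, log axis) for genes of 6 lists, with the dotted line at equal levels and genes at 0 in ciliated cells left out. Most inner arm heavy chains and Spag17 sit at the left, under 5 CPM in the Omp-rich barcodes, and Spef2 and Dnajb13 lie at or below the line.

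Ciliary transport, shared by motile and sensory cilia, separated the cells less. Of 25 intraflagellar transport genes 1 was higher, Dync2li1, a light intermediate chain of the retrograde motor, at 212, 234, 267 and 239 CPM against 40.8 CPM (log2 2.53). The list median was log2 1.29 against all others and 0.92 against the Omp-rich barcodes. Ift88 averaged 331 ± 36.9 CPM against 115 CPM, and Ift57 325 ± 48.7 CPM against 78.9 CPM. With at most 100 Bpifa1 UMIs per cell 3 transport genes were higher. Kif17, a ciliary kinesin of sensory neurons, averaged 6.30 ± 3.29 CPM against 25.7 CPM in the Omp-rich barcodes. None of 9 BBSome genes, which carry membrane proteins in cilia, was higher. Their list median was log2 0.23 against all others and -0.35 against the Omp-rich barcodes, and Bbs9 averaged 57.4 ± 9.84 CPM against 62.6 CPM there.

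Tubulin isotypes differed by gene, with 0 of 12 higher and 3 lower. Tubb4b, the main beta tubulin of motile cilia, stood at 3190, 4490, 4930 and 5710 CPM against 1090 CPM in the others (log2 2.18, range 1.40 to 2.39). Female 1 was lowest, and neither female library reached the 4-fold call. Tubb3, the neuronal isotype, averaged 15.4 ± 10.8 CPM against 429 CPM (log2 -5.14). Tuba1a and Tuba1b have very similar sequences, and their levels of 4630 and 1770 CPM may be split by the counting. Of 15 enzymes that modify tubulin 2 were higher. Ttll9, which adds glutamates, averaged 50.5 ± 5.37 CPM against 1.39 CPM, and Agbl2, which removes them, 96.4 ± 4.70 CPM against 5.65 CPM. Planar polarity genes, which align cilia across the tissue, had 0 of 12 higher and 1 lower, with Celsr1 at 84.3 ± 22.9 CPM against 18.9 CPM.

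**Figure D3:**
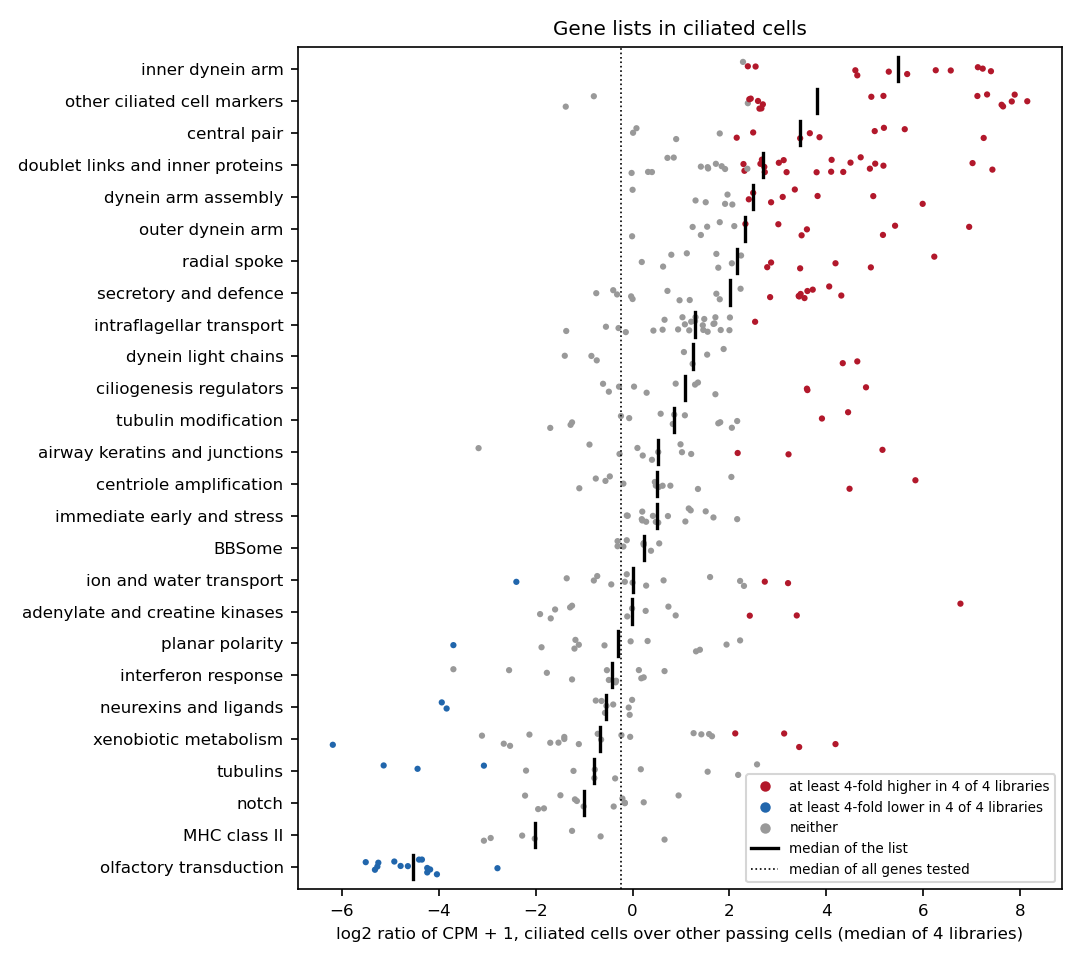
Each point is a gene, placed at its median log2 ratio of CPM + 1 over 4 libraries, ciliated cells over other passing barcodes, in 26 gene lists ordered by their median (black bars). The inner dynein arm list has its median at 5.48 and olfactory transduction at -4.53, and the dotted line marks -0.24, the median of all 19760 genes.

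Metabolic and epithelial genes were read from further lists. Adenylate kinases, which buffer ATP along the cilium, and creatine kinases gave 3 higher of 13. Ak7 stood at 389, 393, 369 and 399 CPM against 2.60 CPM (log2 6.77), with little spread between libraries, and Ak8 averaged 131 ± 26.7 CPM against 23.6 CPM. Among 15 ion and water transport genes 2 were higher and 1 lower. Scnn1a, a subunit of the epithelial sodium channel, averaged 181 ± 22.0 CPM against 27.7 CPM (log2 2.73). Aqp3, a water and glycerol channel, averaged 184 ± 31.8 CPM against 1030 CPM. Cftr averaged 7.70 ± 6.22 CPM against 6.5 CPM. Of 22 genes of xenobiotic metabolism 4 were higher, and the 1 lower gene was Cyp2g1, which the rule itself limits. Aldh1a1, a retinaldehyde dehydrogenase, stood at 896, 451, 545 and 640 CPM against 30.9 CPM (log2 4.19). Aldh3a1 averaged 348 ± 185 CPM against 40.3 CPM, and Cyp2f2 2060 ± 588 CPM against 2120 CPM. Airway keratins and junction genes gave 3 higher of 13. Krt7 stood at 486, 531, 465 and 486 CPM against 12.8 CPM (log2 5.16), and Ezr (ezrin), which ties the apical membrane to actin, at 1230, 1140, 1300 and 1200 CPM against 267 CPM.

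Secretory and defence genes were higher in 9 of 20 cases, but most of their UMIs came from few cells. Bpifa1, an abundant secreted airway protein with a lipid-binding fold, stood at 95100, 88300, 71500 and 51700 CPM against 6690 CPM in the others. Its 243321 UMIs were 8.03% of all UMIs of the ciliated cells, and 96.6% of them were in 31 cells with more than 1000 Bpifa1 UMIs each. The median cell held 10, and the highest 19833. These 31 cells (12, 10, 2 and 7 per library) had a median depth of 37496 UMIs against 10666 in the other ciliated cells. They had a rule count of 87 against 50 and 45 against 42 axoneme genes detected, both medians. None of them was among the barcodes removed by the doublet score. The score simulates doublets from random pairs of barcodes, so pairs with a ciliated cell are few, and it cannot settle what these barcodes hold. In summed CPM the outer dynein arm list stood at 1720 in them and 3930 in the other ciliated cells, and Foxj1 at 926 and 1950. Whether such a barcode held 1 cell or more was not tested.

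Secretory genes divided by where they were found. Reg3g, an antibacterial lectin, stood at 17000 CPM in the 31 cells and 3510 CPM in the rest, and Wfdc2, a secreted protease inhibitor family member, at 5650 and 2700 CPM. Cxcl17, a mucosal chemokine, stood at 291 and 350 CPM, so it did not follow Bpifa1. Bpifb1 (770 and 8.99 CPM), Scgb3a1 (524 and 19 CPM) and Pigr, the receptor that carries antibodies into mucus (531 and 40.7 CPM), did. Among ciliated cells with at most 100 Bpifa1 UMIs, 4 of the 20 secretory genes were higher in place of 9. Over all ciliated cells Wfdc2 stood at 4290, 3850, 2840 and 3520 CPM against 323 CPM in the others, and 94.2% of thinned cells held a Wfdc2 UMI, against 4.96% of Omp-rich and 18.7% of Cyp2g1-rich barcodes. Scgb1a1 and Scgb3a2, secretoglobins of club cells, had 0 UMIs, which allows up to 0.990 CPM.

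**Figure D4:**
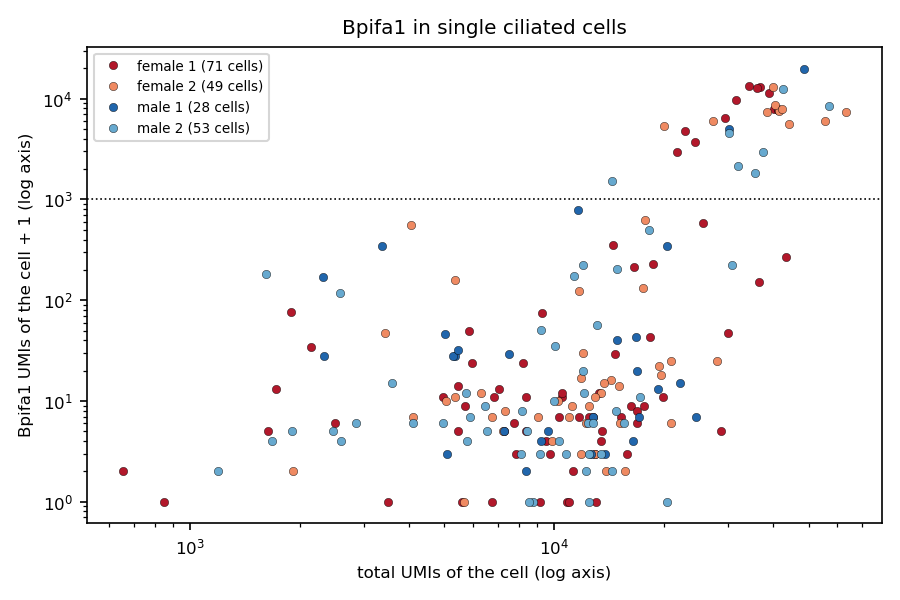
Bpifa1 UMIs plus 1 (vertical, log axis) against total UMIs (horizontal, log axis) of each of the 201 ciliated cells, coloured by library, with the dotted line at 1000 Bpifa1 UMIs. The 31 cells above the line lie toward the deep end, and most of the others hold under 100 Bpifa1 UMIs.

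Depth divided the ciliated cells in a further way. In 51 cells with 5000 to under 10000 UMIs, ribosomal protein genes made a median of 1.58% of the UMIs and dynein heavy chain genes 0.714%. In 90 cells with 10000 to 25000 UMIs the medians were 3.78% and 0.315%, and in 33 deeper cells 4.95% and 0.146%. Mitochondrial UMIs were 4.12%, 2.29% and 1.75% in the same order. The 27 cells under 5000 UMIs went against this order, with 4.72% ribosomal, 0.161% dynein heavy chain and 0.586% mitochondrial UMIs and a median of 17 axoneme genes detected. Across the 201 cells the ribosomal and dynein heavy chain shares had a Spearman coefficient of -0.711 (-0.742, -0.699, -0.752 and -0.677 by library). The shares of a cell have the same total and depth behind them, and cells of a library are not independent replicates.

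The heavy chains are among the longest transcripts, so genes were sorted by their longest annotated transcript. In each library, ciliated cells below that library's median depth were set against those at or above it, over 5145 genes with at least 100 UMIs. Genes with transcripts under 1 kb had median log2 ratios, shallow over deep, of -0.49 to -0.15 across libraries, and those of 8 kb or more 0.27 to 0.77. The median was larger from each of the 5 length classes to the next in each library. Dnah5 (15637 nucleotides) was 0.68 to 1.95 and Rpl26 (657 nucleotides) -1.03 to -0.65. Levels of the longest axoneme genes in ciliated cells therefore moved with depth, and the cause was not tested.

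**Figure D5:**
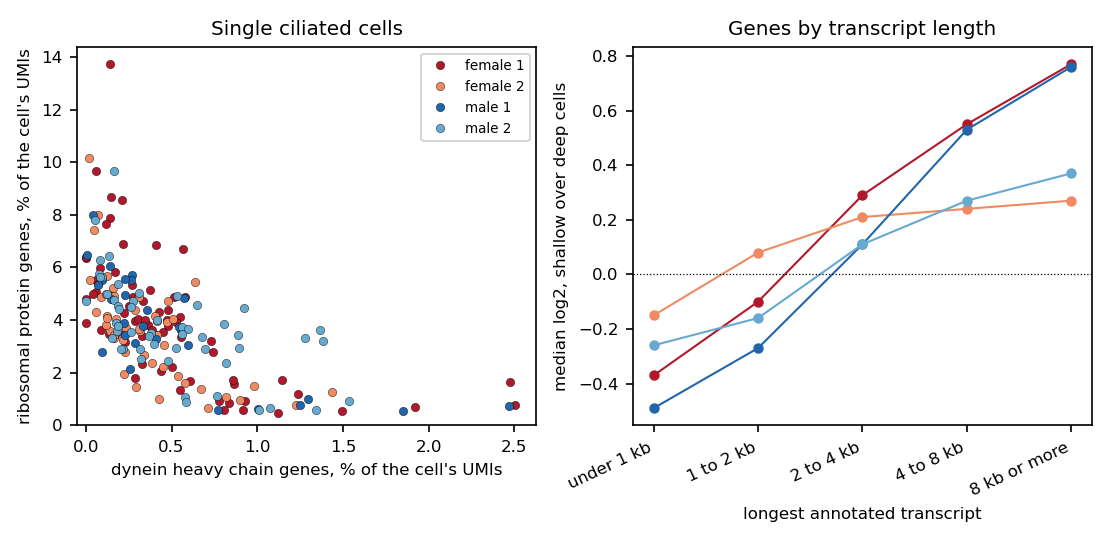
Left, the share of ribosomal protein genes (vertical, %) against the share of dynein heavy chain genes (horizontal, %) in each of 201 ciliated cells, coloured by library, with a Spearman coefficient of -0.711. Right, the median log2 ratio of shallow over deep ciliated cells for 5 classes of longest transcript in each library, from -0.49 for the shortest class to 0.77 for the longest.

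Genes of the sensory neurons were low. All 14 olfactory transduction genes were lower, with a list median of log2 -4.53. Gnal, the olfactory G protein, stood at 37.5, 33.3, 48.1 and 44.7 CPM against 1630 CPM, and Adcy3, the olfactory cyclase, averaged 35.5 ± 5.06 CPM against 758 CPM. The limit on Omp leaves out barcodes with neuron transcripts, so this direction is partly set by the rule. Of 10 listed neurexin and ligand genes 0 were higher and 2 lower, where 4.75% of all genes were lower. The list median was log2 -0.55. Of those described here, Nrxn2 averaged 19.9 ± 5.40 CPM against 19.6 CPM in the others, and Nrxn3 1.32 ± 1.10 CPM against 2.47 CPM. Nlgn1, Cbln1, Cbln2, Lrrtm1 and Lrrtm2 had 0 UMIs in the ciliated cells.

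The sex of the mouse was the label that differed between libraries, and the rule did not use it. Females had a share of ciliated cells of 0.598 ± 0.136% and males 0.408 ± 0.167% (SD, n = 2 each). The difference of 0.190 percentage points gave p = 0.667 in a two-sided exact permutation test, where 0.333 is the smallest p that 2 against 2 libraries allow. Libraries of one sex overlapped those of the other, and the difference was 0.0719 without male 1, 0.0938 without female 1, 0.287 without female 2 and 0.309 without male 2. Nothing in the labels says that libraries came from separate animals, so these tests measure the spread between libraries.

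Summed counts of the ciliated cells were tested between the sexes with edgeR's quasi-likelihood test and Benjamini-Hochberg adjustment. Of 8794 genes 1 passed an adjusted p of 0.05 (0.0114%), and 485 had an unadjusted p under 0.05. The gene was Eif2s3y on the Y chromosome, with 0, 0, 18 and 30 UMIs in female 1, female 2, male 1 and male 2 (log2 8.08, SE 0.86, edgeR adjusted p = 0.00414). This gene checks the labels: Ddx3y had 0, 0, 4 and 8 UMIs, Uty 0, 0, 8 and 11, and Kdm5d 0, 0, 3 and 4. DESeq2 called 4 genes, among them Eif2s3y, Ugt2a1 and Mt1.

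The sex effect in the ciliated cells was then set against that in the Omp-rich barcodes of the same libraries, in a model with the library as a block. Of 15256 genes, 49 passed an adjusted p of 0.05 (0.321%), 33 with a positive and 16 with a negative difference, male over female, and 678 had an unadjusted p under 0.05. In 30 of the 49 more than 20% of the UMIs of the ciliated cells came from 1 cell. Mgp, a matrix protein, had 3, 0, 104 and 1 UMIs, with 104 in 1 cell of male 1, and Hbb-bs, a globin, 2, 9, 209 and 1, with 206 in another cell of male 1. Scgb3a1 had 261, 206, 77 and 89 UMIs, a difference of log2 -1.91, with 21.3% of them in 1 cell. Reg3g had 13312, 7205, 2549 and 2927 UMIs (12200, 8280, 6810 and 4220 CPM), a difference of log2 -1.05, with 7.23% of them in 1 cell. The cells over 1000 Bpifa1 UMIs numbered 12, 10, 2 and 7 in the same libraries. Bpifa1 itself stood at 95100, 88300, 71500 and 51700 CPM. In ciliated cells with at most 100 Bpifa1 UMIs, which leaves these cells out, 51 genes passed, and 29 of them were among the 49. The part of these cells in the differences of Scgb3a1 and Reg3g was not tested. The count of 49 was 27 without male 1 and 94 without female 2.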

How the data were processed

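Single-cell 5′ RNA libraries of 4 samples were analysed. The deposited files are raw counts of UMIs for each barcode and gene, made with Cell Ranger 6.0.2 per the file headers, while the submitters' processing notes name Cell Ranger 5.0.1 and mm10. The authors' rule for calling barcodes cells is not given in the sources used here. Barcodes under 500 genes or over 10% mitochondrial UMIs were left out (557, 493, 610 and 536). No doublets were removed; removal of the barcodes most like simulated doublets, 0.8% per 1000 barcodes, was an alternative that took 1 ciliated cell.

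The ciliated cells, the gene lists and the tests were chosen with earlier results of these data known. Counts were summed per library and cell group. CPM, ratios (1 CPM added) and shares of cells were computed here; the deposited counts carry no normalization. Cells against the rest got no test. Sex was tested on sums with edgeR 4.0.16 (R 4.3.3, glmQLFit, TMM, filterByExpr, Benjamini-Hochberg) and, as an alternative, DESeq2 1.42.0. Only the edgeR sex comparison was tried on simulated data with known changes. Shares used scipy 1.17.1. Genes named were the rule genes, the 25 of largest lowest-library ratio among those with at least 100 CPM in every library, the 4 with most UMIs and those at 0 in each list, genes called by sex, the 15 most variable and the 10 lowest; other list members, and genes of single cells, were named after their values were seen. A few genes that this rule names are not reported here. GENCODE M21 (GRCm38) gave lengths for 22285 of 22399 gene IDs, and RefSeq gave promoters. Libraries were counted separately. Between pairs of libraries, sums of the ciliated cells differed beyond counting error, with a chi-square per gene of 2.3 to 4.91. That value takes UMIs as independent, so the spread between cells is part of it. UMIs mark molecules, and intervals and floors (3 counts) cover counting error only.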

Additional observations from a re-analysis of the deposited data

Results flagged for a closer look

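Results appear here because the sex difference in the ciliated cells differed from that in the Omp-rich barcodes by the test of the difference itself. edgeR's quasi-likelihood test called 49 genes at an adjusted p of 0.05. The largest share of a gene's ciliated-cell UMIs in 1 cell had a median of 25% over these genes. Ugt2a1, an olfactory glucuronosyltransferase that shares exons with Ugt2a2 so that its counts are uncertain, differed by log2 1.26 (adjusted p = 0.00027). Its UMIs were 272, 250, 340 and 333 in female 1, female 2, male 1 and male 2, or 249, 287, 908 and 480 CPM, with both males above both females. Without male 1 the difference was 0.91 (adjusted p = 0.254), and without cells carrying markers of other types 0.73 (adjusted p = 0.344). Gfy, a Golgi protein of sensory neurons, differed by log2 0.97 (adjusted p = 0.00949), at 145, 122, 299 and 261 CPM in the ciliated cells against 3540 to 3800 CPM in the other passing barcodes. Its call was lost without female 2 (0.90, adjusted p = 0.103) and without male 1 (0.91, adjusted p = 0.172), the direction turned without the limits on Omp and Cyp2g1 (-0.23, adjusted p = 1), and 9 of 17 fits passed. Clu, the secreted chaperone clusterin, differed by log2 0.87 (adjusted p = 0.0326), at 246, 297, 499 and 543 CPM. Its call was lost without female 1 (0.84, adjusted p = 0.308), male 1 (1.02, adjusted p = 0.138) or male 2 (0.72, adjusted p = 0.497). The summed sensory neuron markers in the ciliated cells were 458, 374, 718 and 610 CPM, higher in both males, and their part in these differences was not tested.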

How the results depend on the processing

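Beside the alternatives chosen at the start, cells with at most 100 Bpifa1 UMIs, with at least 8000 UMIs or with at most 25000 UMIs, and leaving out libraries for the shares, were chosen after seeing the data. The mean share of ciliated cells of 0.503% was 0.355% to 0.651% over all settings and moved by less than the spread between libraries in each, and 0.439% to 0.574% with a library left out. The 584 higher genes were 343 with 10 CPM added. The 939 lower genes were 223 without limits on Omp and Cyp2g1, 2036 with 0.1 and 330 with 10 CPM added, 550 against the Cyp2g1-rich barcodes and 32 among genes with at least 20 UMIs in each library. The Foxj1 log2 ratio of 3.6 was 3.90 with at most 100 Bpifa1 UMIs, 2.95 against Omp-rich and 5.04 against Cyp2g1-rich barcodes. The thinned Foxj1 share of 86.4% was 78.8% without the limits, 92.1% with at most 100 Bpifa1 UMIs, 90.5% with at most 25000 UMIs, 72.4% at 1000 UMIs and 98.5% unthinned.

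The 1 gene that differed by sex became 5 without the limits, 4 without cells carrying other markers, 5 with at most 100 Bpifa1 UMIs, 11 with at most 25000 UMIs, 4 in DESeq2, 100 without a filter and 10 with at least 20 UMIs in each sum. With at least 8000 UMIs edgeR called 0, with 406 at an unadjusted p under 0.05. With the replicate number as a block there were 19. The labels' numbers are shared by name alone, with 2 pairs and a correlation of 0.0922 between same-numbered libraries. With a library left out it was 39 to 114, where the lone library of a sex is assumed to vary like the others. The 49 genes of the interaction were 10 without the limits, 15 at 5% mitochondrial UMIs, 32 without doublet scores, 7 of 942 in DESeq2, 1 with at least 20 UMIs, and 27 to 94 with a library left out. The Bpifa1 log2 ratio turned to -2.76 with at most 100 Bpifa1 UMIs, by construction, and the Gfy interaction to -0.23 without the limits. The causes of the other changes were not tested. Of log2 ratios of named genes 1979 values moved by less than the spread between libraries and 587 by more.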

Other observations

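Immune and stress genes of the ciliated cells were read from further lists. None of 7 MHC class II genes was called higher or lower, though their list median was log2 -2.02. In female 1, female 2, male 1 and male 2 they summed to 60.4, 249, 107 and 776 CPM, against 528, 985, 402 and 826 CPM in the other passing barcodes. Cd74, the invariant chain, stood at 20.1, 143, 45.4 and 375 CPM against 362 CPM in the other passing barcodes. Male 2 was highest, and 1 of its cells held 108 of the 423 Cd74 UMIs. None of 12 interferon response genes and none of 16 immediate early and stress genes was called. Over all genes 2.96% were called higher and 4.75% lower, so short lists give few calls. The stress list summed to 19000 to 24400 CPM against 10800 to 12300 CPM in the others. Its median was log2 0.51, against -0.24 over all genes. Fos averaged 2560 ± 444 CPM and Jun 2700 ± 322 CPM, against 1810 and 1660 CPM, and Hsp90aa1, a chaperone, 4420 ± 814 CPM against 1070 CPM (log2 2.16, range 1.55 to 2.23). None of 13 Notch pathway genes was called, with a list median of log2 -1.01.

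Single ciliated cells carried transcripts of other types. In female 1, 1 cell with a rule count of 32 held all 103 UMIs of Muc5ac, a gel-forming mucin of goblet cells. In male 1, 1 cell with 43 axoneme genes detected held 104 of 108 Mgp, 24 of 25 Lum and 40 of 53 Col1a1 UMIs, genes of fibroblasts and matrix. Another cell of male 1, with a rule count of 6 and 16 axoneme genes detected, held 25 of 41 Gap43 UMIs and 23 of 69 Stmn2 UMIs, genes of growing neurons. A cell of male 2 with 2863 UMIs and 9 axoneme genes detected held 12 of 20 C1qc UMIs, a macrophage gene. Coch, found in the ionocyte-like marker list, had 455 UMIs in 19 ciliated cells, 119 of them in 1 cell of male 2. Per library, summed markers were 44.8 to 280 CPM for immature sensory neurons, 0 to 71.3 for horizontal basal cells, 10.7 to 43.7 for globose basal and cycling cells, 18.7 to 286 for ionocyte-like cells and 0 to 19.5 for tuft-like cells. They were 346 to 498 CPM for gland, 0 to 77.8 for macrophages, 31.7 to 505 for fibroblasts and 1.44 to 574 for erythrocytes.

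Barcodes outside the rule also carried axoneme genes. In female 1, female 2, male 1 and male 2, 16, 9, 15 and 10 barcodes with under 8000 UMIs had at least 20 axoneme genes detected, within the limits on Omp and Cyp2g1 but not meeting the rule. Their summed axoneme levels were 22900, 25200, 15600 and 27900 CPM, a level that their selection on axoneme genes at low depth makes high. Foxj1, used in neither selection, stood at 2630, 2980, 1230 and 1600 CPM in them, against 1360 to 1790 CPM in the ciliated cells. It was detected in 15, 9, 8 and 9 of these barcodes. Whether they are ciliated cells was not tested, and the shares given above count only barcodes that met the rule.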
